A study of Mus musculus with 6 samples.

Results

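Glycolysis turns glucose into pyruvate in the cytosol, and 10 genes that encode its enzymes were followed in the mouse cochlea by RNA-sequencing. The genes are Hk1, Hk2, Gpi1, Pfkl, Pfkm, Pfkp, Aldoa, Gapdh, Pgk1 and Pkm. They were chosen by name and not by a rule on their values, though with earlier results of these data known, from 25390 genes in the table. Each gene's level is the sum over its transcripts in FPKM, a fragment count scaled to transcript length and to the mapped fragments of the library, so that levels can be compared between genes. All 10 genes had a mean of at least 0.1 FPKM and were among the 19450 genes tested.

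The samples were cochlear basilar membranes dissected from mice of the strain C57BL/6, and the labels name no genetic change and no treatment. The young group was labelled 1 month old and the old group 12 months old, with 3 samples each. Tissue of 3 mice was pooled in each sample, so that the spread between samples is a spread between pools. The strain is widely used as a model of age-related hearing loss, in which cochlear hair cells are lost.

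Glucose is trapped in the cell by hexokinase, rearranged by glucose-6-phosphate isomerase and committed to the pathway by phosphofructokinase. Aldolase splits the sugar, glyceraldehyde-3-phosphate dehydrogenase (Gapdh) and phosphoglycerate kinase (Pgk1) yield the pathway's early NADH and ATP, and pyruvate kinase yields ATP and pyruvate at its end. Hexokinase, phosphofructokinase and pyruvate kinase catalyse the steps that are practically irreversible, and each exists in several forms that differ between cell types. Gapdh is also a common reference gene of RT-qPCR, and it was the reference in this study.

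Pkm makes different pyruvate kinases by a choice between neighbouring exons. These exons are shown because the age groups did not overlap for the M1 message but did for the M2 message, though neither message passed the threshold. The M1 exon is typical of neurons and of skeletal and heart muscle, whereas the M2 exon is found in most other adult cells. Both were read from GENCODE M21 transcripts, on the plus strand of GRCm38, the M1 exon at chr9:59675029-59675195 and the M2 exon at chr9:59675568-59675734. Each is exon 9 of 11 of its own transcript and has 167 nt, and 372 nt of intron lie between them. Capitals mark the 64 bases that differ between the exons, and the other 103 are shared (61.7% identity).
Pkm M1 exon: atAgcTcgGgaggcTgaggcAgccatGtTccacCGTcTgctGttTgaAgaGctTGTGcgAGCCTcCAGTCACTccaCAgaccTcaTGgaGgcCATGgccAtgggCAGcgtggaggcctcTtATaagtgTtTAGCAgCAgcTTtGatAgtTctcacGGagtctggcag
Pkm M2 exon: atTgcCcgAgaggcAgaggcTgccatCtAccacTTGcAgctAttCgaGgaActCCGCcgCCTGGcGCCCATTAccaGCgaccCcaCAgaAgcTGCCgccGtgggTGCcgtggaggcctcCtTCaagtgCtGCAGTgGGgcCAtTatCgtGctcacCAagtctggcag

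The tissue label was compared with markers before the enzymes were read. Hair cell markers were present, with a summed level of 206.5 to 292.1 FPKM in the young and 149.1 to 168.8 FPKM in the old samples, although Atoh1, a developmental factor of hair cells, was at 0.0821 FPKM or less. Of the 11 hair cell markers tested, 4 fell and 0 rose (limma on log2(FPKM + 0.1), adjusted p below 0.05), beside 3.81% of all genes tested that fell and 5.64% that rose, a background that holds for the marker counts that follow. Of 12 neuron markers, 7 fell, and their sum was 634.3 to 1225 FPKM in the young and 428.8 to 471.1 FPKM in the old samples, with 11 of the 12 lowest among the young samples in young replicate 3. Of 10 Schwann cell markers, 4 fell (sums of 986.8 to 1486 and 871.0 to 904.2 FPKM), and of 13 macrophage markers, 11 rose (148.0 to 235.6 and 778.8 to 846.2 FPKM). Of 11 supporting cell markers, 1 rose and 1 fell (1083 to 1198 and 1179 to 1314 FPKM). Of 12 bone markers 3 fell (5168 to 5924 and 4302 to 4717 FPKM), and of 10 erythrocyte markers none passed the test (1435 to 2957 and 1370 to 2255 FPKM). The bone and erythrocyte sums were above the hair cell sum in every sample, so the samples also held RNA typical of bone and blood. The summed level of skeletal muscle markers without Pvalb, which neurons also express, was 5.53 to 8.38 FPKM in the young and 5.20 to 30.2 FPKM in the old samples, with 7 of these 15 markers below 1 FPKM in every sample. Of 14 muscle markers tested, 2 fell, Myl1 and Pvalb, and 0 rose. Most went the other way, with a log2 change above 0 for 11 and below 0 for 3, and a median of 1.02. In bulk tissue, fewer cells of a type and less RNA per cell cannot be told apart.

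The abundances of the 10 genes spanned a wide range, and their order was largely kept with age. Aldoa was the most abundant in both groups (831.3 ± 19.01 FPKM in young and 834.8 ± 82.7 FPKM in old samples, mean ± SD, n = 3), and Hk2 the least (4.03 ± 1.39 and 8.53 ± 0.0677 FPKM). In the young group the order was Aldoa, Gapdh, Pkm, Pgk1, Pfkm, Gpi1, Pfkl, Hk1, Pfkp and Hk2. Gapdh and Pkm were not separated by their spread, nor were Hk1 and Pfkp, whereas the samples of all other neighbours did not overlap. In the old group Gpi1 came before Pfkm, with overlapping samples, and Gapdh and Pkm again overlapped.

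**Figure D1:**
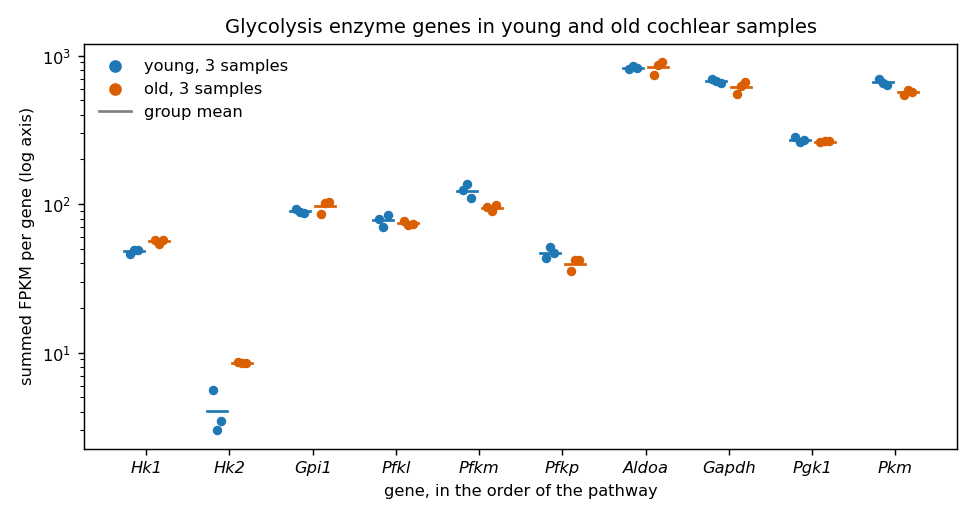
Summed FPKM of each glycolysis enzyme gene (log axis) in the 3 young (blue) and 3 old (orange) samples, with lines at the group means. Levels run from 2.99 FPKM for Hk2 in young replicate 2 to 901.1 FPKM for Aldoa in old replicate 3, and the groups are apart for Hk1, Hk2, Pfkm, Pfkp and Pkm.

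The comparison of old with young samples asked which of these enzymes differed with age. Hk2, a hexokinase, rose 2.12-fold and Pfkm, a phosphofructokinase subunit, fell to 0.764 of its young mean, whereas the other 8 genes did not pass the threshold (limma on log2(FPKM + 0.1), adjusted p below 0.05 over all genes tested). Over all genes tested, 9.46% passed, 5.64% higher and 3.81% lower in old samples. At an unadjusted p below 0.05, 5 of the 10 genes passed, beside 27.8% of all genes. The samples of the groups did not overlap for 2 genes higher in old (Hk1 and Hk2, background 17.6%) and 3 genes lower in old (Pfkm, Pfkp and Pkm, background 16.1%), or 5 of 10 in either direction beside 33.7% of all genes. The median log2 change of the 10 genes was -0.05, against 0.01 over all genes tested, and their median absolute log2 change was 0.18, against 0.27. The exact permutation test of 3 against 3 samples cannot give a two-sided p below 0.1, which is the value for each of the 5 genes without overlap.

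**Figure D2:**
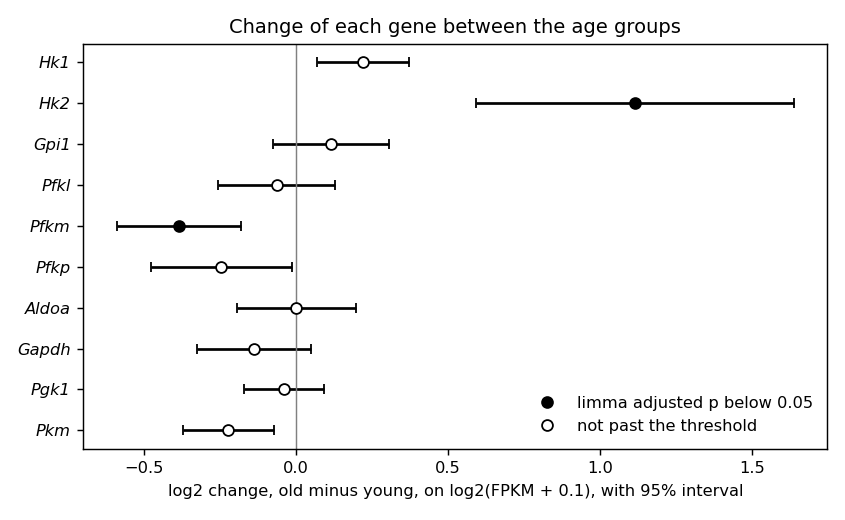
Log2 change, old minus young, of each gene with its 95% interval from the limma fit, filled where the adjusted p was below 0.05. Hk2 lies farthest to the right at 1.11, Pfkm farthest to the left at -0.38, and the intervals of Gpi1, Pfkl, Aldoa, Gapdh and Pgk1 include 0.

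Hk1 and Hk2 encode hexokinases that bind mitochondria, Hk1 being the common form of brain and Hk2 the inducible form of insulin-sensitive tissue and of activated immune cells. Hk2 (ENSMUSG00000000628, chromosome 6 from 82725025 to 82774454, minus strand, GRCm38) was at 5.61, 2.99 and 3.48 FPKM in the young and at 8.59, 8.46 and 8.53 FPKM in the old samples. Every old sample exceeded every young one, and the young samples differed more among themselves than the old ones did. Hk2 rose 2.12-fold, with a log2 change of 1.11 (SE 0.22, 95% interval 0.59 to 1.64, limma adjusted p = 0.0286). By the depth estimate its level stood for 215 to 392 fragments in the young and 567 to 692 in the old samples. The call was kept without young replicate 1 (adjusted p = 0.0128) and lost without any other single sample (young replicates 2 and 3, old replicates 1, 2 and 3), where the log2 change was 0.93 to 1.12 and the limma adjusted p 0.0572 to 0.0964. It was also lost with no variance trend (adjusted p = 0.0754). The summed level of the macrophage markers above was also higher in every old sample than in any young one, and their part in the Hk2 difference was not tested.

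Hk1 (ENSMUSG00000037012, chromosome 10 from 62268855 to 62379908, minus strand) was at 46.0, 49.3 and 49.4 FPKM in the young and at 57.2, 54.2 and 57.2 FPKM in the old samples. The groups did not overlap, but the log2 change of 0.22 (SE 0.06, 95% interval 0.07 to 0.37) did not pass the threshold (limma adjusted p = 0.0740). Its 2 main transcripts took like shares in both groups, ENSMUST00000130422 with means of 50.5% and 48.0% and ENSMUST00000099691 with 45.6% and 44.0%, with overlapping samples. The sum of Hk1 and Hk2 was 52.2 ± 0.610 FPKM in young and 64.7 ± 1.795 FPKM in old samples. Hk2 made up 10.9%, 5.73% and 6.58% of that sum in the young and 13.1%, 13.5% and 13.0% in the old samples (exact permutation p = 0.1, n = 3 and 3). Sums and shares within the hexokinase and phosphofructokinase families were computed after the values of the genes had been seen.

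Gpi1 (ENSMUSG00000036427, chromosome 7 from 34201330 to 34230336, minus strand), the isomerase that makes fructose 6-phosphate, was at 92.4, 88.5 and 86.9 FPKM in the young and at 86.5, 101.6 and 102.9 FPKM in the old samples. Old replicate 1 lay below all young samples and the other two above them. The log2 change was 0.12 (SE 0.08, 95% interval -0.07 to 0.31, limma adjusted p = 0.403).

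Pfkl, Pfkm and Pfkp encode the liver, muscle and platelet subunits of phosphofructokinase, which join in tetramers of mixed make-up in many tissues. Pfkm (ENSMUSG00000033065, chromosome 15 from 98092589 to 98132451, plus strand) was at 124.2, 135.7 and 110.0 FPKM in the young and at 94.997, 89.6 and 97.9 FPKM in the old samples. All old samples lay below all young samples, and young replicate 3 was the young sample nearest to them. Pfkm fell to 0.764 of its young mean (log2 change -0.38, SE 0.09, 95% interval -0.59 to -0.18, limma adjusted p = 0.0395). The call was kept without young replicate 3 (log2 change -0.46, adjusted p = 0.0206) and lost without any other single sample (young replicates 1 and 2, old replicates 1, 2 and 3), where the limma adjusted p was 0.0823 to 0.134. It was also lost with the replicate block (adjusted p = 0.0860), with no variance trend (0.115) and with no filter (0.0560).

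Pfkp (ENSMUSG00000021196, chromosome 13 from 6579768 to 6648777, minus strand) was at 43.2, 51.2 and 47.0 FPKM in the young and at 35.3, 42.3 and 41.7 FPKM in the old samples. Its groups did not overlap, but young replicate 1 and old replicate 2 were close, and the log2 change of -0.25 (SE 0.10, 95% interval -0.48 to -0.01) did not pass the threshold (limma adjusted p = 0.160). Pfkl (ENSMUSG00000020277, chromosome 10 from 77986947 to 78010083, minus strand) was at 79.5, 69.9 and 84.3 FPKM in the young and at 77.1, 72.8 and 73.0 FPKM in the old samples. The old samples of Pfkl lay within the young range (log2 change -0.06, SE 0.08, limma adjusted p = 0.652). The phosphofructokinase sum was 248.3 ± 7.78 FPKM in young and 208.3 ± 4.10 FPKM in old samples, without overlap (exact permutation p = 0.1, n = 3 and 3). Pfkm was the main subunit in both groups, with 49.6% of the sum in young and 45.2% in old samples, and these shares overlapped.

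Aldoa (ENSMUSG00000030695, chromosome 7 from 126795234 to 126800751, minus strand) encodes the aldolase of muscle and of most other tissues. It was at 814.7, 852.1 and 827.2 FPKM in the young and at 742.1, 861.2 and 901.1 FPKM in the old samples. The old samples lay on both sides of the young ones, and the log2 change was 0.0014 (SE 0.08, 95% interval -0.20 to 0.20, limma adjusted p = 0.994), with a sign that depended on the scaling. Within the gene, the main transcript ENSMUST00000032934 made up 89.9% of the young and 85.5% of the old sum, without overlap. The transcript ENSMUST00000106348, named after its values were seen, was at 41.8, 42.4 and 46.1 FPKM in the young and at 67.9, 47.0 and 76.5 FPKM in the old samples (limma adjusted p = 0.1998 over all transcripts tested).

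Gapdh (ENSMUSG00000057666, chromosome 6 from 125161715 to 125166467, minus strand) was at 697.3, 670.7 and 655.3 FPKM in the young and at 554.1, 624.5 and 663.7 FPKM in the old samples. Old replicate 3 lay inside the young range and the other two old samples below it. The log2 change was -0.14 (SE 0.08, 95% interval -0.33 to 0.05), which did not pass the threshold (limma adjusted p = 0.307), whereas with quantile normalization it was -0.33 and passed (adjusted p = 0.0381). As deposited, the interval leaves room for a fall of 0.33 on the log2 scale and for a rise of 0.05. The transcript ENSMUST00000118875 held 97.5% of the sum. The mouse genome holds many processed copies of Gapdh, and how reads shared with them were counted is not given in the sources used here.

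Pgk1 (ENSMUSG00000062070, chromosome X from 106187100 to 106203699, plus strand), the kinase of the early ATP-yielding step, was at 282.4, 262.5 and 270.1 FPKM in the young and at 262.5, 264.8 and 264.9 FPKM in the old samples. It was the steadiest of the 10 genes, with an SD of 0.0405 on the log2 scale over the 6 samples, and 0.766% of the 7704 genes with a mean of at least 10 FPKM had a smaller SD. Its log2 change was -0.04 (SE 0.06, 95% interval -0.17 to 0.09, limma adjusted p = 0.677).

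Pkm (ENSMUSG00000032294, chromosome 9 from 59656368 to 59679375, plus strand) was at 691.4, 651.9 and 639.0 FPKM in the young and at 542.3, 588.7 and 568.1 FPKM in the old samples. The groups did not overlap, but the log2 change of -0.22 (SE 0.06, 95% interval -0.37 to -0.07) did not pass the threshold (limma adjusted p = 0.0723), whereas with quantile normalization it was -0.44 and passed (adjusted p = 0.0142). The transcripts that hold the exons printed above gave different values. They also differ in length outside these exons (2041 nt for M1 and 2432 nt for M2). Their FPKM is an estimate for the whole transcript, and reads over the exons were not counted. The M1 message (ENSMUST00000163694) was at 305.2, 307.6 and 238.0 FPKM in the young and at 178.9, 197.4 and 182.3 FPKM in the old samples, whereas the M2 message (ENSMUST00000034834) was at 386.2, 344.3 and 401.0 FPKM in the young and at 363.4, 391.3 and 385.8 FPKM in the old samples. Every old sample was below every young one for M1, a lack of overlap that 24.6% of all transcripts tested showed in either direction, and the groups overlapped for M2.

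The M1 level in old samples was 0.657 of that in young samples, with a log2 change of -0.60 (SE 0.11) that did not pass the threshold over all transcripts tested (limma adjusted p = 0.0675). It passed without young replicate 3 (log2 change -0.72, adjusted p = 0.0296) and with quantile normalization (-0.73, adjusted p = 0.0478). For M2 the log2 change was 0.01 (limma adjusted p = 0.949). M2 made up 55.9%, 52.8% and 62.8% of the sum of both messages in the young samples and 67.0%, 66.5% and 67.9% in the old samples. The share was higher in every old sample than in any young one, by 9.98 percentage points between means of 57.1% ± 5.09 and 67.1% ± 0.728 (SD, n = 3, exact permutation p = 0.1). With 1 sample left out the difference was 7.82 to 12.8 points, the larger without young replicate 3, the young sample with the lowest M1 level.

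**Figure D3:**
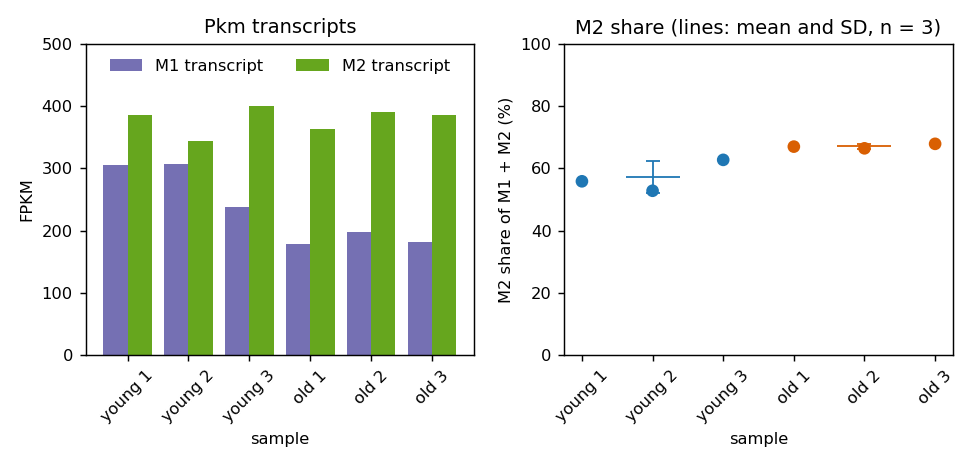
FPKM of the Pkm M1 and M2 transcripts in each sample (left) and the M2 share of their sum in percent (right, with lines for the mean and SD of 3 samples). M1 is at 178.9 to 197.4 FPKM in the old and 238.0 to 307.6 FPKM in the young samples, while the M2 bars of the groups overlap.

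Young replicate 3 also stood apart in neuron and Schwann cell markers. Among the young samples, 9 of 10 Schwann cell markers were lowest there, against 2 of 12 hair cell and 0 of 12 bone markers. The counts were 3 of 13 for macrophage, 2 of 11 for supporting cell, 1 of 10 for erythrocyte and 5 of 16 for muscle markers. Of the 15 reference genes, 7 were lowest there, and the share over all genes is not given. The muscle sum without Pvalb was also lowest there. Nefl, a neurofilament subunit, was at 204.3, 235.7 and 127.2 FPKM in the young and at 85.6, 90.1 and 86.2 FPKM in the old samples. Snap25, a protein of synaptic vesicle release, was at 335.2, 438.9 and 210.3 FPKM in the young and at 135.4, 143.9 and 134.7 FPKM in the old samples. Pkm M1, Pfkm, Eno2 (the neuronal enolase), Nefl and Snap25 were each lowest, among the young samples, in young replicate 3, whereas Pkm M2 was highest there. This was not particular to them, as Gpi1, Gapdh and the Pkm sum were also lowest there. Hk1, Hk2, Pfkl, Pfkp, Aldoa and Pgk1 were not. The part of neuron content in the values of Pkm M1 and Pfkm was not tested. Skeletal muscle also uses M1 and Pfkm, and its markers without Pvalb summed to 5.53 to 8.38 FPKM in the young and 5.20 to 30.2 FPKM in the old samples, with the highest sum in old replicate 1. The part of muscle content was not tested either.

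**Figure D4:**
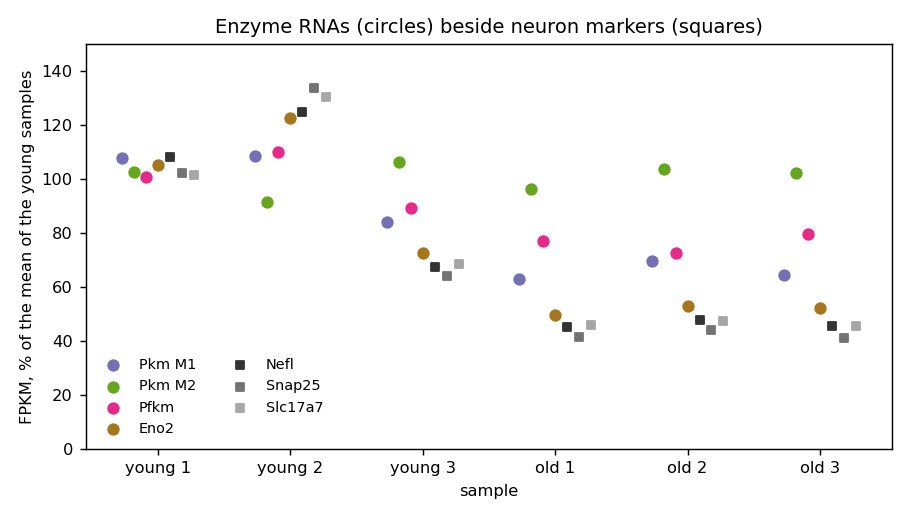
FPKM of enzyme RNAs (circles) and neuron markers (squares) in each sample, in percent of the mean of the young samples. In the old samples Pkm M1 was at 63.1 to 69.6%, Pfkm at 72.7 to 79.4%, Eno2 at 49.5 to 52.9%, Nefl at 45.3 to 47.6% and Pkm M2 at 96.4 to 103.7%.

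The genes together have 49 transcripts in the table, of which 29 were tested and 21 reached a mean of 1 FPKM. None passed the adjusted threshold by limma, and 8 had an unadjusted p below 0.05. With quantile normalization 1 passed, the Pkm M1 message. Over all transcripts tested, 0.748% passed the adjusted threshold, and 17% the unadjusted one. Most of the Hk2 level came from ENSMUST00000000642 (limma adjusted p = 0.0832 as a transcript) and of Pfkm from ENSMUST00000051226 (0.0960). Both thus passed in the fit over genes but not in the fit over all transcripts. With the most abundant transcript of each gene in place of its sum, Hk2 and Pfkm also passed (limma adjusted p = 0.0366 and 0.0474). A single transcript also held the level of Pfkl (ENSMUST00000020522) and Pgk1 (ENSMUST00000081593), and the main one held 91.0% of Gpi1 (ENSMUST00000038027), 62.3% of Pfkp (ENSMUST00000021614) and 61.7% of Pkm (the M2 message).

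The enzymes of each step were then summed with the remaining isozymes of the pathway, a sum chosen after the values were seen. The hexokinase step was 25.0% higher in old than in young samples, without overlap. The sums of phosphofructokinase (-16.1%), phosphoglycerate mutase (-15.0%), enolase (-19.6%) and pyruvate kinase (-14.3%) were lower in every old sample than in any young one (exact permutation p = 0.1 for each of these 5 steps, n = 3 and 3). Among all single genes tested, 33.7% had groups without overlap. These sums also contain Hk1, Hk2, Hkdc1, Pfkm, Pfkp, Pgam1, Eno1, Eno2, Eno3 and Pkm, whose groups were already apart as single genes. Among the enolases, Eno1 (means of 221.9 FPKM in young and 200.9 FPKM in old samples) and Eno2 were lower in old samples. Eno3 went the other way (9.57 and 13.7 FPKM). The samples overlapped for the isomerase (8.68%), aldolase (-0.14%), triose phosphate isomerase (-2.42%), Gapdh (-8.95%) and phosphoglycerate kinase (-2.81%).

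The other genes of glucose metabolism were described from a list of 77 genes, of which 69 were tested. Of these, 3 rose and 5 fell, beside the background of 5.64% and 3.81%, and their median log2 change was 0.01, the same as over all genes to this precision. Among the 12 other glycolytic enzymes tested, Eno2 and Pgam1 fell. Eno2 was at 103.6, 120.8 and 71.6 FPKM in the young and at 48.8, 52.2 and 51.4 FPKM in the old samples (log2 change -0.92, SE 0.18, limma adjusted p = 0.0257). Pgam1, the mutase ahead of enolase, went from a mean of 219.4 to 186.0 FPKM (log2 change -0.24, limma adjusted p = 0.0397). Tpi1, the most abundant of that group, had means of 230.4 and 224.8 FPKM with overlapping samples.

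Genes at the exits and side branches of the pathway gave the other calls. Of 7 genes of lactate handling, Slc16a1 (the lactate carrier MCT1) fell from 14.8 to 9.28 FPKM (log2 change -0.65, limma adjusted p = 0.0301), while Ldhb, the most abundant, had a log2 change of -0.20 (adjusted p = 0.119). Of 14 genes of pyruvate entry into mitochondria, 11 had a log2 change below 0 and 1 fell, Dlat, a subunit of pyruvate dehydrogenase (31.4 to 23.6 FPKM, log2 change -0.41, limma adjusted p = 0.0257), and Mpc1, the most abundant, was at means of 157.2 and 139.3 FPKM. Of 13 genes of gluconeogenesis and glycogen, Fbp2, a fructose bisphosphatase best known from muscle, rose from 1.78 to 4.82 FPKM (log2 change 1.38, limma adjusted p = 0.0110). Pygb, the most abundant there, had a log2 change of 0.10 (adjusted p = 0.408). Of 7 pentose phosphate genes, Tkt (81.7 to 105.2 FPKM, log2 change 0.36, limma adjusted p = 0.0399) and Taldo1 (115.6 to 139.7 FPKM, 0.27, adjusted p = 0.0371), which return pentoses to glycolysis, rose. With quantile normalization these 2 did not pass (0.0796 and 0.0943). Among 6 genes of glucose uptake and 10 regulators of glycolysis none passed the test by limma. Slc2a1, the glucose carrier GLUT1 and the most abundant of the first, had means of 118.1 and 123.5 FPKM, and Hif1a, the most abundant of the second, 66.2 and 67.0 FPKM. Leaving out young replicate 1 or 2, or any old sample, left 0 or 1 of the 8 calls.

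Gapdh was compared with 15 other common reference genes because it served as the RT-qPCR reference. Of these, 5 rose and 1 fell by limma. B2m (log2 change 0.95), Gusb (0.47), Eef1a1 (0.45) and Rpl19 (0.36) were among those that rose, and Tfrc (-0.88) fell. With quantile normalization, Rpl19 (adjusted p = 0.109) no longer passed, whereas Hsp90ab1 (log2 change -0.29, 0.0434) and Gapdh did. Over the 6 samples Gapdh had an SD of 0.117 on the log2 scale. Of the 15 genes, 6 had a smaller SD, Sdha (0.0467), Ywhaz (0.0523), Ppia (0.0899), Hprt (0.0956), Actb (0.115) and Hsp90ab1 (0.115). Among the 7704 genes with a mean of at least 10 FPKM, 29.3% had a smaller SD than Gapdh, and their median SD was 0.157. Rpl13a (0.34), Ppia (0.14), Actb (0.12), Hprt (-0.10), Tbp (-0.10) and Hsp90ab1 (-0.17) had log2 changes that did not pass the threshold as deposited, nor did those of Sdha (-0.04) and Ywhaz (0.01, or -0.10 with quantile normalization). The mean log2 change of the 15 genes was 0.14, on the other side of 0 from that of Gapdh.

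**Figure D5:**
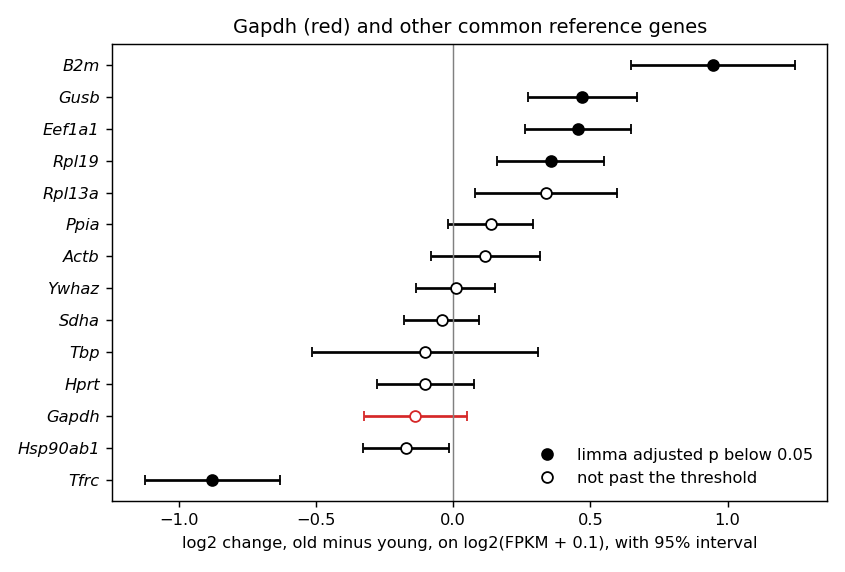
Log2 change, old minus young, of Gapdh (red) and 13 other reference genes with 95% intervals, filled where the limma adjusted p was below 0.05. Gapdh lies at -0.14 with an interval that includes 0, Tfrc at -0.88 is lowest and B2m at 0.95 is highest.

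Because Gapdh is the divisor of an RT-qPCR value, 7 RNAs that were also quantified by RT-qPCR were expressed relative to Gapdh in the sequencing data. AW112010, a long noncoding RNA, was at 3.15, 2.69 and 0.767 FPKM per 1000 FPKM of Gapdh in the young and at 9.69, 8.37 and 11.9 in the old samples. Its log2 change was 2.15 as deposited, 2.29 relative to Gapdh and 2.01 relative to the mean of the 15 other reference genes. For 5330434G04Rik, another long noncoding RNA, these values were -1.37, -1.23 and -1.51. Each gene moves by the same amount under such a division, so that a small change is affected most. Arid5b, a transcription factor, had log2 changes of 0.37, 0.51 and 0.22. The 15 reference genes included 5 that rose and 1 that fell by limma, so that their mean also carries differences between the age groups. Relative to Gapdh, the groups did not overlap for AW112010, Gm44593, 1700030C10Rik, 5330434G04Rik, Rian and Arid5b (exact permutation p = 0.1 for each, n = 3 and 3). All but Arid5b were drawn by the paper from lncRNAs that differed in this same sequencing, so that this lack of overlap is no independent support. As deposited, 33.7% of all genes tested did not overlap. The groups overlapped for H19, another of the drawn lncRNAs (log2 change -0.81, exact permutation p = 0.3). Its values as deposited were at 2.82, 1.73 and 1.52 FPKM in the young and 1.46, 0.831 and 0.741 FPKM in the old samples, without overlap. By limma on the values as deposited, Arid5b (adjusted p = 0.0662) and H19 (0.125) did not pass the threshold. The other RNAs, which the paper drew from this same sequencing, did.

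The genes whose profile over the 6 samples was nearest to that of Gapdh were Mrpl12, Ppih, Rcan1, Zfp422 and Vps52, at root mean square distances of 0.0258, 0.0276, 0.0292, 0.0344 and 0.0348 on the centred log2 scale. All of them are less abundant than Gapdh, and the measure takes no account of level. Of the other 9 enzymes, Pkm was nearest at 0.0717 (rank 192 of the genes compared), followed by Aldoa at 0.0810 and Pgk1 at 0.0901. Hk1 was at 0.207, with its groups apart in the other direction from Pkm.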

How the data were processed

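Total RNA of 3 young and 3 old pools was sequenced by the authors from directional libraries. Per the labels, the submitters' processing notes name CASAVA 1.8, TopHat2 2.0.9, Cufflinks 2.1.1 and Cuffdiff 2.1.1 with the build GRCm38. The deposited table holds FPKM, as the authors' Cuffdiff gave it, for 56671 transcripts. The scaling between libraries, the annotation release and the counting of reads with several matches are not given in the sources used here. Sample columns were matched to groups by their labels, and nothing says that the pools shared a litter or a day. The labels give 1 month where the paper gives the young age in weeks.

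Transcripts were matched to GENCODE M21, and FPKM was summed per gene symbol. The 404 Ensembl transcripts without a match were left out, and 992 of the authors' own lncRNA transcripts were kept as they stand. Genes with a mean of at least 0.1 FPKM were tested in limma 3.58.1 (R 4.3.3, lmFit, eBayes with trend) on log2(FPKM + 0.1) with age group as the only term, as the study's test, Cuffdiff, needs reads. A fold change on this scale understates the change of low genes. P-values were two-sided and adjusted by the Benjamini-Hochberg method over all 19450 genes or 38764 transcripts, with a threshold of 0.05. Single values were compared by the exact permutation test in scipy 1.17.1. Tables were handled in pandas 2.3.3 and numpy 2.4.6 (Python 3.11.15) and plots drawn in matplotlib 3.10.9. The fit was tested on simulated data in which chosen genes had been changed.

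Low FPKM values come in steps of 1 fragment, which put the depth at 12580000 to 15630000 fragments per sample. Of the values used, 92.2 to 93.3% lay within 0.1 of a whole step, against 20% by chance. The fragment numbers carry counting error only.

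The members and lists were chosen with earlier results of these data known. The text names all 10 members, the most abundant transcript of each, the listed genes of glucose metabolism past the threshold, the most abundant gene of each of their groups, the reference genes, and the 5 profiles nearest to Gapdh, but the values of 3 listed genes are not reported here, though they enter the counts and means. Neuron, Schwann, hair and supporting cell, macrophage, erythrocyte, bone and muscle markers came from general knowledge. The settings varied were the pseudocount, the filter, the scaling, the variance trend, sample weights, a replicate block, single samples left out, the most abundant transcript in place of the sum, adjustment over protein-coding genes, and an unadjusted p.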

Additional observations from a re-analysis of the deposited data

How the results depend on the processing

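The calls on the enzymes were few and near the threshold. Of the 10 genes, 2 passed in the reported fit, 1 with no filter (Hk2), 4 with quantile normalization (Hk2 higher; Pfkm, Gapdh at -0.33 and Pkm at -0.44 lower, limma adjusted p = 0.0381 for Gapdh and 0.0142 for Pkm), 0 with no variance trend, 5 with an unadjusted p, and 0 to 1 with a sample left out. With the replicate block 1 passed, Hk2 with an adjusted p of 0.0499. Same-numbered samples had correlations of their deviations from the group means of 0.0235, -0.0412 and 0.0107. These values show no pairing by number, but with 3 samples a group they cannot exclude one. No sample was paired in the reported fit. The other pathway genes had 8 calls, 2 with no variance trend, 2 with the replicate block, and 0 to 8 with a sample left out. The enzymes' transcripts had 0 calls, 1 with quantile normalization, and 0 to 1 with a sample left out. The log2 change of Aldoa changed sign with median of ratios scaling (-0.0050), quantile normalization (-0.10), the most abundant transcript (-0.071) and with a sample left out (-0.056 to 0.084). That of Pkm was 0.014 with the most abundant transcript, since that is the M2 message. Arid5b moved to 0.22 relative to the other reference genes. Hk1, Gpi1, Pfkl, Pfkp and Pgk1 kept their direction and their side of the threshold in all 16 alternatives with p adjusted over all genes tested, while Hk1 and Pfkp passed with an unadjusted p, and the M2 share of Pkm kept its direction. Quantile normalization moved the median of all genes by -0.03 but Gapdh by -0.19, Pkm by -0.22 and Aldoa by -0.10, and the cause was not tested. The depth is an estimate, and 3 pools a group leave no exact p below 0.1.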
